A study of Homo sapiens with 12 samples.

Results

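The ZNF165 knockdown in MKN28 cells was described from 6 of the 12 libraries of the series: 3 from MKN28 cells labelled as carrying a ZNF165 knockdown and 3 from MKN28 cells labelled wild type that had received a control lentivirus. The libraries were chosen by their labels, and every gene of the deposited count table was considered, 50868 identifiers in all, of which 14939 had enough counts to be tested. MKN28 is an established line of human gastric adenocarcinoma cells, and its stock is known to have the same origin as the line MKN74. The knockdown agent is described as a lentivirus with a small interfering RNA against the gene. All 6 libraries therefore came from cells exposed to a lentivirus. No time after infection, no selection step and no sequence of the agent is stated, and nothing says whether the 3 libraries of a group came from separate cultures. The p-values therefore reflect differences among these libraries that may be technical in origin. No rescue of the gene and no second agent against it is labelled for these cells, so effects of the agent on other transcripts cannot be told apart from effects of lower ZNF165. The replicate number that a label carries is used here as the name of a library.

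ZNF165 encodes a zinc-finger protein of the C2H2 class, in which each finger is folded around a zinc ion and touches a few bases of DNA, and which also carries a SCAN domain, a module through which such proteins pair with each other. Proteins of this class usually act at promoters and other control regions. Knockdown by small interfering RNA works on the transcript: the RNA is loaded into an Argonaute protein and guides it to matching messages, which are cut. A knockdown therefore leaves some transcript behind, and its depth is read from the level of the targeted gene.

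ZNF165 lies at chr6:28080975-28089563 on the plus strand (GRCh38, GENCODE 29). It was lower in all 3 knockdown libraries, at 4.75, 3.95 and 2.52 CPM in knockdown replicates 1 to 3 against 10.8, 7.89 and 12.4 CPM in control replicates 1 to 3. CPM here are counts put on a common library size after TMM, a factor from a trimmed, weighted mean of log ratios between libraries. It does not make library medians equal. Over all genes tested, knockdown replicates 1 to 3 had medians of −0.04, −0.41 and −0.45 log2 CPM relative to the control mean. The groups did not overlap, and the fitted level in the knockdown was 36.2% of control (log2 fold change −1.47, SE 0.53, adjusted p = 0.0459, edgeR quasi-likelihood test with Benjamini-Hochberg adjustment over all genes tested, as for every adjusted p below). The exact two-sided permutation test on ZNF165 alone gave p = 0.1, the smallest that the 10 splits of 3 against 3 allow. Leaving out control replicate 1, 2 or 3 or knockdown replicate 2 or 3 ended the call (edgeR adjusted p 0.0604 to 0.173). The 6 omissions gave log2 fold changes between −1.23 and −1.63.

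The sample descriptions name a different target for each knockdown library: ZNF165 for replicate 1, ZNF166 for replicate 2 and ZNF167 for replicate 3, while the genotype field gives ZNF165 for all 3. ZNF166 is an older name of ZNF197, another SCAN zinc-finger gene, which had counts of 221, 137 and 291 (controls) and 129, 23 and 36 (knockdown replicates 1 to 3). Its lowest count was in the library described with its name. ZNF167 is an older name of ZKSCAN7, which had 1 count in control replicate 3 and 0 in the other libraries, too few to show any change. ZNF165 itself had its fewest counts, 22, in the library described with ZNF167. The genotype field was followed, and each knockdown library is shown on its own below.

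The knockdown libraries differed from the controls in make-up as well as in single genes. Library totals were 17604320, 18679466 and 17095729 counts for control replicates 1 to 3 and 15100954, 17829359 and 12075813 for knockdown replicates 1 to 3, so that 3 counts, the most that a count of 0 leaves possible, correspond to 0.161 to 0.175 CPM and 0.168 to 0.248 CPM before TMM scaling. Such limits cover counting error only. Between 14930 and 15530 genes had at least 10 counts in a control, against 14202, 12921 and 12286 in knockdown replicates 1 to 3. The 100 most abundant genes took 16.9 to 21.01% of counts in the controls and 23.2, 33.3 and 29.8% in knockdown replicates 1 to 3. TMM factors were 1.264 to 1.376 for the controls and 1.032, 0.5682 and 0.7242 for the knockdown libraries. Without TMM, with library totals alone, the median log2 fold change of all genes tested was −0.92 in place of −0.20, so every rise given below is relative to a scaling that moves all genes by that difference.

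Of the 14939 genes tested, 6092 passed an adjusted p under 0.05 (40.8%), 2864 of them higher in the knockdown (19.2%) and 3228 lower (21.6%). The 3 knockdown libraries lay outside the range of the 3 controls on the same side for 8040 genes (53.8%), 3515 above (23.5%) and 4525 below (30.3%). A stricter set, in which every knockdown library lay at least 2-fold beyond every control and the test was passed, held 1245 genes above (8.33%) and 2106 below (14.1%). These shares are the background against which the counts in each gene list are to be read. Members named from a list were mostly those of highest mean CPM over all 6 libraries, which favours genes high in the knockdown. A list is therefore described by its counts and median, not by the members named. Replicate 1 moved less than the other two: 2048, 3634 and 3205 genes lay at least 2-fold above every control in replicates 1 to 3, and 2799, 5281 and 5360 lay at least 2-fold below. Of the genes called, 213 (3.50%) had replicate 1 inside the control range, against 11 for replicate 2 and 2 for replicate 3. Calls depended on single libraries: 2642 genes passed when control replicate 1 was left out, 3171 when control replicate 3 was, and 10378 when knockdown replicate 1 was. Counts in a list after such omissions, or with library totals alone, are given in brackets where they move by more than 1.5 times and by at least 2 genes, with libraries named as control 1 to 3 and knockdown 1 to 3.

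Transcript length and base composition moved with the knockdown across all genes. With the tested genes split into 5 equal groups by transcript length, the median log2 fold change went from 1.27 in the shortest (up to 1734 bases) through 0.48, −0.17 and −0.80 to −1.74 in the longest (5558 bases and more). In the shortest group 41.8% of genes rose and 3.90% fell, and in the longest 3.63% rose and 51.1% fell. By GC content of the transcript, the medians went from −1.67 in the lowest group (up to 41.4% GC) through −0.90, −0.07 and 0.75 to 1.07 in the highest (58.4% and above). The length gradient was present in every knockdown library, with medians of 1.00, 1.32 and 1.27 in the shortest group and −1.26, −2.13 and −2.27 in the longest, in log2 CPM relative to the control mean. The GC gradient belonged mainly to replicates 2 and 3, whose medians went from −2.37 and −2.81 in the lowest group to 1.68 and 1.18 in the highest. Replicate 1 went from −0.73 to 0.07. Control replicate 2 also leaned towards GC-rich genes, with −0.47 in the lowest and 0.41 in the highest group.

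**Figure D1:**
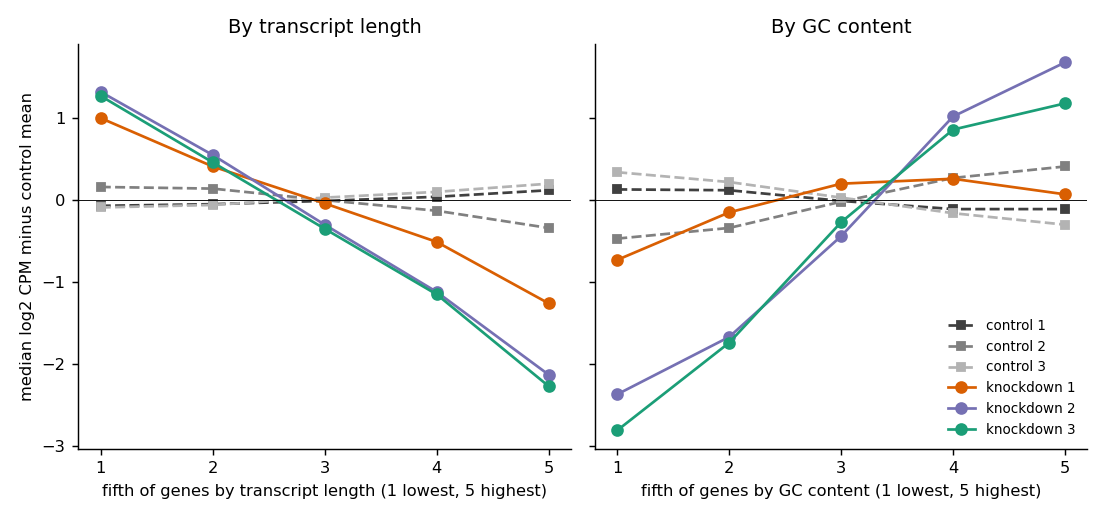
Median log2 CPM minus the mean of the 3 controls (vertical axis) in 5 equal groups of tested genes, ordered by transcript length (left) and by GC content of the transcript (right), with 1 line per library: grey squares for the controls, coloured circles for the knockdown libraries. All 3 knockdown lines fall with length, while only replicates 2 and 3 rise steeply with GC content, from −2.37 and −2.81 to 1.68 and 1.18.

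Genes were also split into 3 groups by length and 3 by GC content. Among the shortest genes, those of lowest GC had medians of 0.61, −1.09 and −1.18 in knockdown replicates 1 to 3, and those of highest GC had 0.81, 2.38 and 1.96. Among genes of similar length, GC content thus went with a wide difference in replicates 2 and 3 and a small one in replicate 1. Transcripts with more than 20 exons had a median log2 fold change of −1.98, with 56.4% lower and 2.08% higher, and single-exon transcripts had 0.47. The mean transcript length behind a count was 3781 to 4349 bases in the controls and 3061, 2673 and 2764 bases in knockdown replicates 1 to 3. RNA quality values are not among the labels, and the part of length, GC content or RNA quality in any single change was not tested. To give the size of what moves with them, each group below is also reported after a smooth trend in length and GC content was removed from every library. Under that fit 6208 genes passed, 57.2% of them higher, and 3822 were among the 6092 called without it, 3810 in the same direction.

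**Figure D2:**
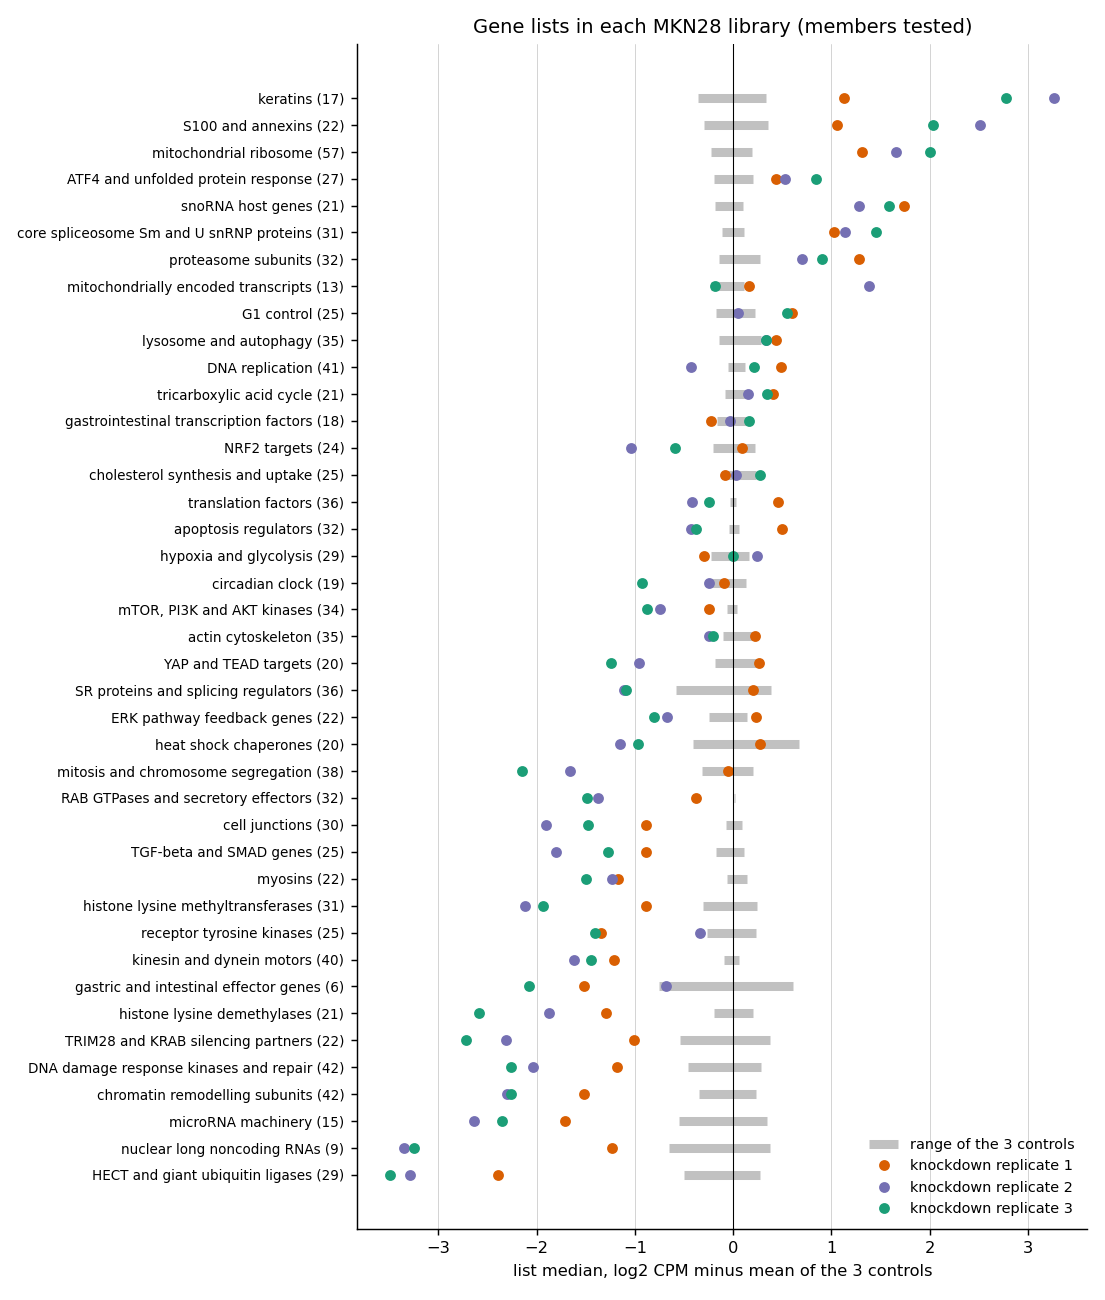
Median of each of 41 gene lists in every MKN28 library, in log2 CPM minus the mean of the 3 controls (horizontal axis), with the number of tested members in brackets; grey bars span the 3 control libraries and coloured points are knockdown replicates 1, 2 and 3. Keratins lie at 1.13, 3.27 and 2.78 and the HECT and giant ubiquitin ligases at −2.39, −3.29 and −3.49, and several lists in the middle have replicate 1 on the other side of 0 from replicates 2 and 3.

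More keratin, S100 and annexin genes rose than fell. Keratins form the intermediate filaments of epithelia, and KRT8 with KRT18 is the pair of simple, single-layered epithelia such as the gastric lining. Of 17 tested of 20 listed keratin genes, 13 rose (8 without control 3), 1 fell and 3 did not pass. Their log2 fold changes had a median of 2.63, and their transcripts a median length of 2088 bases. KRT8 was at 1917, 2182 and 2779 CPM in control replicates 1 to 3 and 8573, 43809 and 29055 CPM in knockdown replicates 1 to 3. It was the most abundant gene of every knockdown library, with 0.884, 2.49 and 2.10% of counts in replicates 1 to 3, and rose 11.8-fold (log2 fold change 3.57, SE 0.70, adjusted p = 0.00500). KRT18 rose 6.19-fold from 1534 ± 179 to 9494 ± 5749 CPM (SD, n = 3), and KRT19 rose 3.57-fold, although replicate 1, at 1225 CPM, lay inside the control range. The keratin medians of knockdown replicates 1 to 3 were 1.13, 3.27 and 2.78 log2 CPM relative to the control mean, against −0.36 to 0.33 in the controls. Of 22 tested of 25 listed S100 and annexin genes, 13 rose (5 without control 1 or 3, 6 with library totals), 0 fell (3 without knockdown 1) and 9 did not pass. Members had log2 fold changes with a median of 1.79 and transcripts with a median of 1794 bases. S100 proteins are small calcium sensors, and annexins bind membrane lipids in the presence of calcium. S100A11 was at 421, 669 and 322 CPM in control replicates 1 to 3 and 769.9, 3819 and 1945 CPM in knockdown replicates 1 to 3, so that replicate 1 lay just above the highest control. S100A10, the partner of annexin A2, rose 4.09-fold from 366 ± 94.97 to 1497 ± 912 CPM, and S100A16 rose 7.75-fold from 136 ± 35.9 to 1054 ± 625 CPM (SD, n = 3). With the length and GC trend removed, 11 of the keratins rose and 1 fell (median 1.23) and 8 of the S100 and annexin genes rose and 0 fell (median 0.76). Leaving out 1 library ended the calls of KRT18, KRT19, S100A11 and S100A10 without control 1 or 3, KRT19 without control 2 or knockdown 3, and KRT19, S100A11 and S100A10 without knockdown 2 (edgeR adjusted p 0.0505 to 0.163). Scaling mattered too: calls ended with library totals alone for KRT19, S100A11 and S100A10, and with removal of the length and GC trend for KRT19, S100A11 and S100A10 (KRT19 with the sign changed) (edgeR adjusted p 0.0561 to 0.688). Both KRT8 and KRT18 have processed copies elsewhere in the genome, to which some of their reads may have been assigned.

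**Figure D3:**
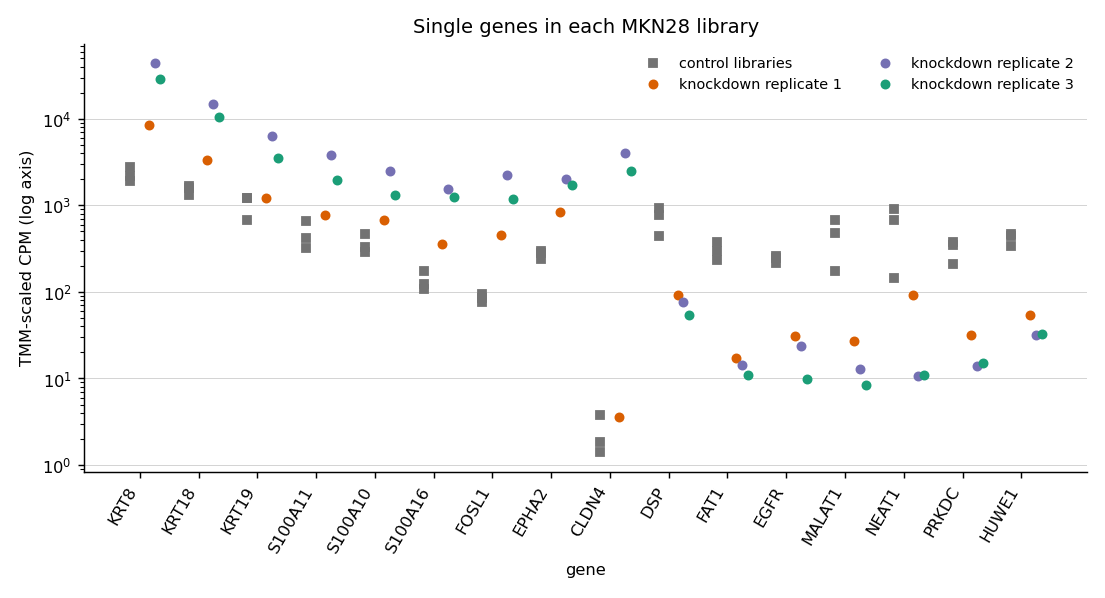
Level of 16 genes in each MKN28 library, in TMM-scaled CPM on a log axis; grey squares are the 3 controls and coloured circles knockdown replicates 1 to 3. For KRT8, KRT18, the 3 S100 genes, FOSL1 and EPHA2 replicate 1 lies between the controls and replicates 2 and 3, CLDN4 stays within the controls in replicate 1, and for DSP, FAT1, EGFR, MALAT1, PRKDC and HUWE1 all 3 knockdown libraries lie at least 2-fold below every control.

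More genes of cell junctions fell than rose. The genes of tight junctions, adherens junctions and desmosomes gave 30 tested genes of 35 listed, of which 2 rose (6 without knockdown 1), 12 fell (7 without control 1 or 3) and 16 did not pass. At a median transcript length of 4888 bases, the median log2 fold change was −1.26. DSP, which ties the keratin filaments to desmosomes, was at 945, 447 and 766 CPM in control replicates 1 to 3 and 92.05, 75.9 and 54.6 CPM in knockdown replicates 1 to 3. DSP fell 9.70-fold (log2 fold change −3.28, SE 0.51, adjusted p = 0.00367). FAT1, a giant protocadherin and the longest transcript of the list, fell 21.3-fold from 302 ± 71.5 to 14.2 ± 3.18 CPM (SD, n = 3). PKP3, a desmosomal plaque protein, rose 4.51-fold. CLDN4, a tight-junction claudin of gastric and intestinal epithelium, had counts of 34, 89 and 42 (controls) and 56, 40987 and 21578 (knockdown replicates 1 to 3). Its call (log2 fold change 9.86, adjusted p = 0.00496, edgeR quasi-likelihood test) therefore rests on replicates 2 and 3, and replicate 1 lay between the lowest and the highest control. The list medians were −0.89, −1.91 and −1.48 in replicates 1 to 3. Of 18 tested of 27 listed transcription factors of the gastrointestinal epithelium, 3 rose (1 without control 1 or 3), 3 fell (6 without knockdown 1, 6 with library totals) and 12 did not pass. List medians were 0.23 (−0.62 with library totals alone) for the log2 fold change and 3316 bases for length. OVOL1 and ELF3, which favour the epithelial state, rose 6.23-fold and 4.78-fold, and SOX9, a factor of intestinal progenitors, fell 3.76-fold from 109 ± 36.5 to 28.9 ± 2.92 CPM (SD, n = 3). GRHL2, an epithelial transcription factor, and GRHL1 also fell, with log2 fold changes of −3.03 and −2.90 (edgeR adjusted p 0.00946 and 0.00944). Both were added with their values in view, and omissions and other scalings are not given for GRHL1. Of 35 effector genes of gastric and intestinal cells, such as mucins and pepsinogens, 6 had enough counts to be tested. Among these, CEACAM6, a surface glycoprotein, fell 4.37-fold, the mucin MUC3A fell 6.50-fold, and the mucin MUC4 rose 6.97-fold from a level of 0.253 ± 0.169 CPM, near the level of 3 counts, so its fold is not exact. MUC4 had enough counts to be tested only through the knockdown libraries. Once the length and GC trend was taken out, 3 of the junction genes rose and 13 fell (median −0.46) and 3 of the transcription factors rose and 7 fell (median −0.10). Single omissions ended the calls of PKP3, ELF3, SOX9, CEACAM6, MUC3A and MUC4 without control 1, CEACAM6 and MUC3A without control 2 or knockdown 3, PKP3, ELF3, CEACAM6 and MUC4 without control 3, and CEACAM6 without knockdown 2 (edgeR adjusted p 0.0531 to 0.133). Further calls ended with library totals alone for PKP3, and with removal of the length and GC trend for MUC3A (edgeR adjusted p 0.0555 to 0.236).

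The unfolded protein response lowers protein synthesis and raises chaperones when proteins misfold in the endoplasmic reticulum, and its PERK branch acts through the transcription factor ATF4, which also answers amino acid shortage. Its other branches, ATF6 and XBP1, bind the endoplasmic reticulum stress element, which reads CCAAT, then 9 bases of any kind, then CCACG. The element was searched on both strands from 250 bases before to 50 bases after each RefSeq gene start (GRCh38.p14). It was present in 5 of 25 promoters matched for the tested genes of the list, in 14 of 10599 promoters of all genes tested (0.132%) and in 22 of 27305 promoters in the table (0.0806%). CCAAT alone was present in 76.0% and 36.8% of the list's and of all tested genes' promoters. The 5 stretches are shown because their genes carry the same element and moved in different directions; they run 5′ to 3′ along the gene, with the element in capitals, and where the element lies on the opposite strand its reverse complement is read. They lie at chr9:125241366-125241434 on the minus strand, chr22:28800578-28800646 on the minus strand, chr22:49918529-49918597 on the plus strand, chr19:12938359-12938427 on the plus strand and chr12:103930191-103930364 on the plus strand, the last with an element on each strand.
HSPA5: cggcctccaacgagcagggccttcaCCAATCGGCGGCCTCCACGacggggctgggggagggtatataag
XBP1: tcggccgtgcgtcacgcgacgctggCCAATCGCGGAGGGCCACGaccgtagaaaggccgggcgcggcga
CRELD2: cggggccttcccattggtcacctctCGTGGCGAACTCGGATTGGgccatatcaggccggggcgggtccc
CALR: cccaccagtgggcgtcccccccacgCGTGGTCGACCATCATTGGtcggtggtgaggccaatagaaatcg
HSP90B1: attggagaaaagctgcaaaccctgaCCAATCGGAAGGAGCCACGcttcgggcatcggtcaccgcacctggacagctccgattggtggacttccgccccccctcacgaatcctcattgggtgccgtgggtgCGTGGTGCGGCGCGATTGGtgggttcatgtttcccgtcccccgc

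The genes behind these promoters did not move together. XBP1, the transcription factor of that branch, rose 2.58-fold from 98.3 ± 18.1 to 254 ± 62.04 CPM, CRELD2, a secreted endoplasmic reticulum protein, rose 3.96-fold from 35.04 ± 7.32 to 139 ± 71.5 CPM, and CALR, a calcium-binding chaperone, rose 2.63-fold from 1112 ± 353 to 2925 ± 931 CPM (SD, n = 3). HSP90B1, the HSP90 of the endoplasmic reticulum, fell 3.36-fold from 571 ± 204 to 169.8 ± 80.9 CPM (SD, n = 3). HSPA5, the main chaperone of the compartment, was at 1159, 1073 and 1872 CPM in control replicates 1 to 3 and 3609, 1461 and 1476 CPM in knockdown replicates 1 to 3. Only its replicate 1 lay above the controls, and the test was not passed, at a log2 fold change of 0.67 (edgeR adjusted p = 0.331). A match of letters is a description, not a bound site.

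More genes of the list on ATF4 and this response rose than fell. Of 27 tested of 28 listed genes of ATF4 and the unfolded protein response, 12 rose (4 without control 1, 5 without control 3, 7 without knockdown 2 or 3, 5 with library totals), 4 fell (1 without control 1 or 3 or knockdown 2 or 3, 2 without control 2) and 11 did not pass. For the list, the median log2 fold change was 1.37 and the median length 2622 bases. ATF4 itself was at 552, 873 and 524 CPM in control replicates 1 to 3 and 1955, 1986 and 2921 CPM in knockdown replicates 1 to 3, with every knockdown library above every control. PPP1R15A, the phosphatase subunit that restores protein synthesis after stress, rose 10.5-fold from 369 ± 212 to 3869 ± 1652 CPM (log2 fold change 3.39, SE 0.64, adjusted p = 0.00456). SESN2, a leucine sensor that holds back mTOR, was at 72.5, 63.2 and 70.8 CPM in control replicates 1 to 3 and 642, 2025 and 1485 CPM in knockdown replicates 1 to 3. SESN2 rose 20.1-fold (log2 fold change 4.33, SE 0.58, adjusted p = 0.00367). SLC3A2, the heavy chain of amino acid transporters, rose 8.33-fold, and TRIB3, a pseudokinase induced by ATF4, rose 4.21-fold. SLC7A11, the cystine transporter that pairs with SLC3A2 and is also an ATF4 and NRF2 target, fell 9.90-fold from 138 ± 88.2 to 13.9 ± 7.51 CPM (SD, n = 3), and its transcript of 9645 bases is the longest of the list. SESN2, SLC3A2, TRIB3, XBP1, CRELD2, HSP90B1 and HSPA5 were named after their values were seen. After removal of the trend, 10 rose and 0 fell (median 0.74). Calls were lost for CALR, ATF4, XBP1, CRELD2, HSP90B1 and TRIB3 without control 1, CALR and XBP1 without control 2, CALR, ATF4, XBP1, CRELD2 and HSP90B1 without control 3, CALR, XBP1, CRELD2 and HSP90B1 without knockdown 2, and CALR, ATF4, XBP1 and HSP90B1 without knockdown 3 (edgeR adjusted p 0.0519 to 0.208). Other scalings ended calls, with upper-quartile factors for CALR, library totals alone for CALR, ATF4, XBP1 and CRELD2, and with removal of the length and GC trend for CALR, ATF4, HSP90B1 and SLC7A11 (edgeR adjusted p 0.0563 to 0.483).

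Cytosolic and mitochondrial heat shock chaperones, which fold proteins after heat and other stress, included few genes that rose. Of 20 tested heat shock genes, 1 rose (3 without knockdown 1), 5 fell (9 without knockdown 1) and 14 did not pass. Median log2 fold change and transcript length were −0.57 and 2622 bases. HSP90AA1, the inducible cytosolic HSP90, was at 744, 411 and 1776 CPM in control replicates 1 to 3 and 207, 61.4 and 26.6 CPM in knockdown replicates 1 to 3. HSP90AA1 fell 9.94-fold (log2 fold change −3.31, SE 0.83, adjusted p = 0.0114). Its controls lay more than 4-fold apart, and the median of the list ranged from −0.41 to 0.67 in the 3 controls. HSPD1, the mitochondrial chaperonin, fell 3.81-fold. HSF1, the transcription factor of the response, rose 3.90-fold from 90.9 ± 23.1 to 354 ± 202 CPM (SD, n = 3). The targets of NRF2, the regulator of antioxidant genes, gave 24 tested genes, of which 3 rose (1 without control 1, 2 or 3 or knockdown 2 or 3, 9 without knockdown 1, 1 with library totals), 7 fell (3 without control 1 or 3, 4 without knockdown 3) and 14 did not pass. The median log2 fold change was 0.21 (−0.49 with library totals alone), and the median transcript length 2805 bases. The members with called rises were NQO1, a quinone reductase (2.48-fold), TALDO1, of the pentose phosphate pathway (2.63-fold), and HMOX1, heme oxygenase, at 15.3, 27.9 and 25.8 CPM in control replicates 1 to 3 and 69.1, 203 and 166 CPM in knockdown replicates 1 to 3. Every knockdown library of HMOX1 lay above every control. SLC7A11, described above and also in this list, was 1 of the 7 that fell (log2 fold change −3.31). Net of the trend, 2 of the heat shock genes rose and 7 fell (median −0.74) and 3 of the NRF2 targets rose and 4 fell (median −0.25). No longer passing were HSPD1, HSF1, NQO1 and TALDO1 without control 1 or 3 or knockdown 2, and HSPD1, NQO1 and TALDO1 without control 2 or knockdown 3 (edgeR adjusted p 0.0518 to 0.186). Adjusted p rose above the threshold with upper-quartile factors for TALDO1, library totals alone for HSPD1, HSF1, NQO1 and TALDO1, and with removal of the length and GC trend for TALDO1 (TALDO1 with the sign changed) (edgeR adjusted p 0.0516 to 0.463).

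Genes of the cell cycle moved in both directions. Of 41 tested genes of DNA replication, 9 rose (3 without control 1 or 3, 5 without knockdown 3, 15 without knockdown 1, 5 with library totals), 4 fell (16 without knockdown 1) and 28 did not pass. Their log2 fold changes had a median of 0.32 (−0.32 with library totals alone), and their transcripts a median length of 3202 bases. MCM2 and MCM5, subunits of the replicative helicase, rose 3.24-fold and 6.84-fold, and TK1, thymidine kinase, rose 5.97-fold from 142 ± 51.4 to 848 ± 523 CPM (SD, n = 3). The list medians were 0.49, −0.43 and 0.21 in knockdown replicates 1 to 3, against −0.05 to 0.12 in the controls, so replicate 2 lay on the other side of 0 from replicates 1 and 3. Of 38 tested genes of mitosis and chromosome segregation, 6 rose (2 without control 1, 3 without control 3), 13 fell (25 without knockdown 1) and 19 did not pass. Members had log2 fold changes with a median of −0.70 and transcripts with a median of 3590.5 bases. CDC20 and UBE2C, of the anaphase-promoting complex pathway, rose 3.94-fold and 7.06-fold, and PLK1, a mitotic kinase, rose 4.79-fold from 139 ± 16.7 to 666 ± 335 CPM, while CENPF, a kinetochore protein with the longest transcript of the list, fell 10.7-fold from 133 ± 48.6 to 12.4 ± 4.43 CPM (SD, n = 3). The medians of mitotic genes were −0.05, −1.66 and −2.15, within the controls in replicate 1. The genes that control G1 gave 25 tested genes, of which 9 rose (2 without control 1 or 3, 4 without knockdown 3, 3 with library totals), 3 fell (6 without knockdown 1) and 13 did not pass. At a median transcript length of 2904 bases, the median log2 fold change was 0.40 (−0.34 with library totals alone). CDKN1A, the p21 inhibitor of cyclin-dependent kinases, was at 132, 199.7 and 91.1 CPM in control replicates 1 to 3 and 451, 1464 and 997 CPM in knockdown replicates 1 to 3. CDKN1A rose 6.88-fold. CDKN2A, which encodes the p16 and ARF inhibitors and has the shortest transcript of the list, rose 8.60-fold from 23.5 ± 5.69 to 202 ± 140.05 CPM. CDK4 and E2F4, a kinase and a transcription factor of G1, rose 4.46-fold and 2.84-fold, whereas CDK6, the relative of CDK4 with the longest transcript of the list, fell 9.55-fold from 92.5 ± 38.8 to 9.67 ± 0.979 CPM (SD, n = 3). With the trend removed, 16 of the replication genes rose and 4 fell (median 0.37), 8 of the mitotic genes rose and 9 fell (median −0.26) and 8 of the G1 genes rose and 3 fell (median 0.66). Leaving out 1 library ended the calls of MCM2, TK1, CDC20, PLK1, CDK4 and E2F4 without control 1 or 3, and MCM2 and E2F4 without knockdown 2 or 3 (edgeR adjusted p 0.0513 to 0.137). Further losses came with library totals alone for MCM2, CDC20 and E2F4, and with removal of the length and GC trend for CDC20, CENPF, E2F4 and CDK6 (edgeR adjusted p 0.0525 to 0.414).

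Genes of energy and sterol metabolism moved in both directions. Of 29 tested of 30 listed genes of glycolysis and the hypoxia response, 7 rose (1 without control 1 or 3, 4 without control 2, 11 without knockdown 1, 4 with library totals), 4 fell (1 without control 1, 2 without knockdown 2, 8 without knockdown 1) and 18 did not pass. List medians were −0.10 (0.07 with DESeq2) for the log2 fold change and 3016 bases for length. GAPDH was at 3683, 4298 and 3117 CPM in control replicates 1 to 3 and 8327, 24851 and 18889 CPM in knockdown replicates 1 to 3. GAPDH rose 4.69-fold. ENO1, enolase, rose 4.66-fold from 3482 ± 681 to 16235 ± 8358 CPM, and PKM, pyruvate kinase, rose 4.51-fold from 1337 ± 219.8 to 6032 ± 3520.1 CPM (SD, n = 3). For the 3 enzymes every knockdown library lay above every control, and replicate 1 was the lowest of the 3. Of 21 tested genes of the tricarboxylic acid cycle, 3 rose (1 without control 1 or 3 or knockdown 2, 8 without knockdown 1, 1 with library totals), 2 fell (0 without control 1 or 3 or knockdown 2 or 3, 6 without knockdown 1) and 16 did not pass. For the list, the median log2 fold change was 0.32 (−0.46 with library totals alone) and the median length 2838 bases. MDH2, malate dehydrogenase, rose 3.70-fold, and IDH3B and IDH3G, subunits of isocitrate dehydrogenase, rose 5.44-fold and 4.57-fold. The genes of cholesterol synthesis and uptake gave 25 tested genes, of which 7 rose (0 without control 1, 1 without control 3, 4 without knockdown 2 or 3, 12 without knockdown 1, 0 with library totals), 3 fell (1 without control 1, 10 without knockdown 1, 5 with library totals) and 15 did not pass. Median log2 fold change and transcript length were 0.15 (−0.60 with library totals alone) and 3087 bases. FDPS and MVK, of the mevalonate pathway, rose 3.41-fold and 4.31-fold, and ACAT2, which makes its first precursor, rose 2.74-fold from 35.4 ± 8.63 to 97.2 ± 44.4 CPM (SD, n = 3). Once the length and GC trend was taken out, 8 of the genes of glycolysis and hypoxia rose and 5 fell (median 0.58), 5 of the cycle genes rose and 2 fell (median 0.47) and 7 of the cholesterol genes rose and 3 fell (median 0.24). Single omissions ended the calls of GAPDH, ENO1, PKM, MDH2, IDH3G, FDPS, ACAT2 and MVK without control 1 or 3, PKM and ACAT2 without control 2, MDH2, IDH3G and FDPS without knockdown 2, and MDH2, FDPS and ACAT2 without knockdown 3 (edgeR adjusted p 0.0508 to 0.163). Calls also ended with upper-quartile factors for ACAT2, library totals alone for PKM, MDH2, IDH3G, FDPS, ACAT2 and MVK, and with removal of the length and GC trend for GAPDH, IDH3G and FDPS (edgeR adjusted p 0.0513 to 0.327).

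The mitochondrial ribosome makes the few proteins encoded by mitochondrial DNA, and all of its proteins are encoded in the nucleus. Of 57 tested genes of mitochondrial ribosomal proteins, 36 rose (15 without control 1, 20 without control 3, 21 with library totals), 1 fell (9 without knockdown 1) and 20 did not pass. The median log2 fold change was 1.75, and the median transcript length 1706 bases. Its medians were 1.31, 1.66 and 2.00 in knockdown replicates 1 to 3, all above the controls at −0.22 to 0.19. MRPL28, MRPL12 and MRPL11, of the large subunit, rose 8.03-fold, 6.84-fold and 8.75-fold. MRPL11 was at 58.6, 84.6 and 52.3 CPM in control replicates 1 to 3 and 213, 853 and 646 CPM in knockdown replicates 1 to 3. MRPL54, the shortest transcript of the list, rose 28.9-fold from 9.98 ± 2.16 to 289 ± 223 CPM (SD, n = 3). The transcripts of mitochondrial DNA gave 13 tested genes, of which 1 rose (4 without knockdown 1), 1 fell (4 without knockdown 2, 4 with library totals) and 11 did not pass. Their log2 fold changes had a median of 0.60 (−0.30 with library totals alone), and their transcripts a median length of 784 bases. Their medians were 0.16, 1.38 and −0.18, with replicate 2 apart from the others. MT-ND3, of complex I, was at 281, 412 and 208 CPM in control replicates 1 to 3 and 692, 3293 and 1734 CPM in knockdown replicates 1 to 3. MT-ND3 rose 6.34-fold. MT-ND6, of the same complex but encoded on the other strand of the circle, fell 3.85-fold from 97.2 ± 24.2 to 25.2 ± 9.64 CPM (SD, n = 3). Without a stated strand setting, reads of MT-ND6 and of its antisense cannot be told apart. After removal of the trend, 32 of the genes of the mitochondrial ribosome rose and 0 fell (median 1.05) and 1 of the mitochondrial transcripts rose and 2 fell (median 0.49). Calls were lost for MRPL12, MT-ND3 and MT-ND6 without control 1, MRPL12 and MT-ND3 without control 3, and MT-ND6 without knockdown 3 (edgeR adjusted p 0.0523 to 0.0696). Scaling mattered too: calls ended with removal of the length and GC trend for MRPL12 (edgeR adjusted p 0.200).

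In 3 lists of genes that make and break down proteins, rises outnumbered falls, though not under every omission and scaling. Of the lysosome and autophagy genes 22.9% rose and 5.71% fell, beside 19.2% and 21.6% of all genes tested. Of 36 tested translation factor genes, 11 rose (3 without control 1 or 3, 7 with library totals), 5 fell (3 without control 1 or 3 or knockdown 2 or 3, 14 without knockdown 1) and 20 did not pass. Members had log2 fold changes with a median of 0.02 (−0.05 with upper-quartile factors and −0.64 with library totals alone) and transcripts with a median of 3809.5 bases. EIF6, which keeps the large ribosomal subunit apart until it is ready, was at 143, 232 and 175 CPM in control replicates 1 to 3 and 851, 4100.1 and 2614 CPM in knockdown replicates 1 to 3. EIF6 rose 13.8-fold (log2 fold change 3.78, SE 0.65, adjusted p = 0.00379). EEF1G, of the elongation factor complex, rose 4.05-fold, and EIF5A, which helps the ribosome over difficult stretches, rose 6.30-fold from 239.8 ± 46.9 to 1512 ± 807 CPM (SD, n = 3). Of 32 tested proteasome subunit genes, 15 rose (5 without control 1, 9 without control 3, 8 with library totals), 0 fell (11 without knockdown 1) and 17 did not pass. At a median transcript length of 2393 bases, the median log2 fold change was 1.13. PSMB3, of the catalytic core, was at 137, 189 and 170.4 CPM in control replicates 1 to 3 and 715, 1732 and 1673 CPM in knockdown replicates 1 to 3. PSMB3 rose 8.31-fold (log2 fold change 3.06, SE 0.52, adjusted p = 0.00379). PSMD2 and PSMD8, of the regulatory cap, rose 3.45-fold and 8.43-fold. The proteasome medians were 1.28, 0.70 and 0.91, highest in replicate 1. The genes of the lysosome and autophagy gave 35 tested genes of 36 listed, of which 8 rose (1 without control 1, 2 without control 3, 5 without knockdown 2 or 3, 3 with library totals), 2 fell (9 without knockdown 1, 4 with library totals) and 25 did not pass. List medians were 0.36 (−0.46 with library totals alone) for the log2 fold change and 3214 bases for length. SQSTM1, an autophagy receptor, rose 3.82-fold from 915 ± 343 to 3491 ± 1398 CPM, and ATP6V0C and ATP6V0D1, of the proton pump that acidifies lysosomes, rose 5.28-fold and 5.52-fold. Net of the trend, 20 of the translation factor genes rose and 3 fell (median 0.85), 21 of the proteasome genes rose and 0 fell (median 1.13) and 11 of the lysosome and autophagy genes rose and 4 fell (median 0.45). No longer passing were EEF1G, PSMD2, SQSTM1 and ATP6V0C without control 1, EEF1G, PSMD2 and SQSTM1 without control 3, and PSMD2 without knockdown 3 (edgeR adjusted p 0.0538 to 0.117). Further calls ended with library totals alone for EEF1G, PSMD2 and SQSTM1, and with removal of the length and GC trend for ATP6V0C (edgeR adjusted p 0.0599 to 0.478).

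The very large ubiquitin ligases, which mark proteins for the proteasome, were the lowest of the lists by median log2 fold change. The nuclear long noncoding RNAs were close, at −2.41, and lower in knockdown replicate 2, at −3.35 against −3.29. Of 29 tested genes of HECT and giant ubiquitin ligases, 0 rose, 22 fell and 7 did not pass. For the list, the median log2 fold change was −2.54 and the median length 7857 bases. HUWE1 was at 449, 341 and 468 CPM in control replicates 1 to 3 and 54.1, 32.1 and 32.5 CPM in knockdown replicates 1 to 3. HUWE1 fell 10.6-fold (log2 fold change −3.40, SE 0.48, adjusted p = 0.00367). UBR4 was at 523, 461 and 602 CPM in control replicates 1 to 3 and 86.9, 93.7 and 93.05 CPM in knockdown replicates 1 to 3, so its 3 knockdown libraries lay within 86.9 to 93.7 CPM. TRIP12 fell 4.13-fold from 192 ± 91.02 to 46.4 ± 42.7 CPM (SD, n = 3), with the 3 knockdown libraries at 95.7, 23.02 and 20.5 CPM. Its medians were −2.39, −3.29 and −3.49 in replicates 1 to 3, and with the trend removed 1 rose and 16 fell (median −1.19). Leaving out 1 library ended the calls of TRIP12 without control 1 or 3 or knockdown 2 or 3 (edgeR adjusted p 0.0874 to 0.125). Other scalings ended calls, with library totals alone for TRIP12, and with removal of the length and GC trend for TRIP12 (TRIP12 with the sign changed) (edgeR adjusted p 0.0500003 to 0.652).

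More genes of the core spliceosome rose than fell, and more genes of splicing regulators fell than rose, a direction that turned with the length and GC trend taken out. The core is built from small nuclear RNAs with Sm and other proteins, and SR proteins and heterogeneous nuclear ribonucleoproteins choose the splice sites. Of 31 tested core spliceosome genes, 16 rose (8 without control 1, 9 without control 3, 9 with library totals), 2 fell (0 without control 3 or knockdown 3, 4 without knockdown 1, 4 with library totals) and 13 did not pass. Median log2 fold change and transcript length were 1.26 and 2269 bases. SNRPB, an Sm protein, was at 245, 349 and 272 CPM in control replicates 1 to 3 and 1553, 5206 and 4583 CPM in knockdown replicates 1 to 3. SNRPB rose 13.1-fold (log2 fold change 3.71, SE 0.60, adjusted p = 0.00370). SF3B5, the smallest subunit of the branch-site complex SF3B, rose 17.9-fold, and U2AF2, which reads the polypyrimidine tract, rose 6.10-fold. SF3B3, the longest transcript of the list and a subunit of the same complex as SF3B5, fell 3.14-fold from 173 ± 5.98 to 55.1 ± 11.6 CPM (SD, n = 3). Of 36 tested genes of SR proteins and other splicing regulators, 3 rose (0 without control 1 or 3 or knockdown 3, 1 without control 2 or knockdown 2, 0 with library totals), 9 fell (4 without control 3, 5 without control 1 or knockdown 3, 17 without knockdown 1) and 24 did not pass. The median log2 fold change was −0.44, and the median transcript length 4172 bases. SRRM2, a scaffold of nuclear speckles, fell 3.14-fold from 659 ± 217 to 209.6 ± 79.9 CPM, and HNRNPM and the kinase CLK3 rose 2.96-fold and 2.75-fold. The medians of the regulators were 0.20, −1.11 and −1.09 in replicates 1 to 3, and the controls ranged from −0.58 to 0.39. This list changed sign with the trend removed, when 17 rose and 6 fell (median 0.93), while of the core genes 19 rose and 0 fell (median 1.09). Single omissions ended the calls of SF3B3, SRRM2, HNRNPM and CLK3 without control 1 or 3 or knockdown 3, HNRNPM without control 2, and SF3B3 and CLK3 without knockdown 2 (edgeR adjusted p 0.0518 to 0.160). Adjusted p rose above the threshold with library totals alone for HNRNPM and CLK3, and with removal of the length and GC trend for SF3B3, SRRM2 and HNRNPM (SF3B3 with the sign changed) (edgeR adjusted p 0.182 to 0.898).

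Most noncoding RNAs tested in the nuclear list fell, and no host gene of small nucleolar RNAs did. Of 9 tested of 13 listed long noncoding RNAs, 1 rose, 6 fell and 2 did not pass. Their log2 fold changes had a median of −2.41, and their transcripts a median length of 8708 bases. MALAT1, a nuclear speckle RNA, was at 475, 173 and 679 CPM in control replicates 1 to 3 and 27.1, 12.8 and 8.35 CPM in knockdown replicates 1 to 3. MALAT1 fell 27.4-fold (log2 fold change −4.78, SE 0.71, adjusted p = 0.00367). NEAT1, the RNA core of paraspeckles, was at 911, 145 and 684 CPM in control replicates 1 to 3 and 91.02, 10.8 and 10.9 CPM in knockdown replicates 1 to 3. NEAT1 fell 15.4-fold, with the controls themselves more than 4-fold apart. NORAD, a decoy for PUMILIO proteins, fell 5.32-fold from 376 ± 143 to 70.6 ± 69.98 CPM (SD, n = 3). The host genes, whose introns carry small nucleolar RNAs, gave 21 tested genes, of which 11 rose (7 without control 1 or 3, 7 with library totals), 0 fell (3 without knockdown 1) and 10 did not pass. Members had log2 fold changes with a median of 1.29 and transcripts with a median of 1698 bases. SNHG15 was at 18.2, 23.8 and 26.8 CPM in control replicates 1 to 3 and 172, 365 and 334 CPM in knockdown replicates 1 to 3. SNHG15 rose 12.7-fold (log2 fold change 3.66, SE 0.51, adjusted p = 0.00367). SNHG7 and SNHG17 rose 9.03-fold and 6.85-fold. Of 15 tested of 16 listed genes of microRNA processing and action, 1 rose, 11 fell (7 without control 1) and 3 did not pass. At a median transcript length of 7116 bases, the median log2 fold change was −2.11. XPO5, which exports microRNA precursors, and AGO1, an Argonaute protein, fell 2.65-fold and 3.99-fold, and TARBP2, the partner of DICER1, rose 10.3-fold from 12.6 ± 1.57 to 129.8 ± 94.9 CPM (SD, n = 3). With the trend removed, 3 of the long noncoding RNAs rose and 2 fell (median −0.61), 11 of the host genes rose and 1 fell (median 1.16) and 3 of the microRNA genes rose and 6 fell (median −0.48). Calls were lost for NORAD, XPO5 and AGO1 without control 1 or knockdown 3, XPO5 without control 2, and NORAD and XPO5 without control 3 or knockdown 2 (edgeR adjusted p 0.0533 to 0.150). Further losses came with removal of the length and GC trend for NEAT1, NORAD, XPO5 and AGO1 (AGO1 with the sign changed) (edgeR adjusted p 0.0772 to 0.658).

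More genes fell than rose in each of 4 lists of chromatin genes. Of 42 tested genes of chromatin remodelling complexes, 6 rose, 25 fell and 11 did not pass. List medians were −1.87 for the log2 fold change and 6407 bases for length. CHD4, the motor of the NuRD complex, was at 398, 337 and 432 CPM in control replicates 1 to 3 and 113, 76.5 and 77.3 CPM in knockdown replicates 1 to 3. CHD4 fell 4.37-fold (log2 fold change −2.13, SE 0.44, adjusted p = 0.00563). BCL7C and SMARCD2, subunits of the BAF complex, rose 10.3-fold and 2.81-fold. Of 31 tested histone lysine methyltransferase genes, 1 rose (3 without knockdown 1), 15 fell (8 without control 1 or knockdown 3, 9 without control 3 or knockdown 2) and 15 did not pass. For the list, the median log2 fold change was −1.44 and the median length 6827 bases. KMT2D and KMT2A, which methylate histone H3 at enhancers and promoters, fell 8.34-fold and 11.2-fold, and NSD2 fell 2.91-fold. KMT2D was at 177, 171 and 275 CPM in control replicates 1 to 3 and 24.4, 27.3 and 23.004 CPM in knockdown replicates 1 to 3. The histone lysine demethylase genes gave 21 tested genes, of which 2 rose (0 without control 1 or 3, 0 with library totals), 13 fell (5 without control 1 or 3, 7 without knockdown 3, 8 without knockdown 2) and 6 did not pass. Median log2 fold change and transcript length were −1.66 and 6062 bases. KDM2A, KDM5B and KDM3B fell 2.69-fold, 7.96-fold and 4.71-fold. TRIM28 is the corepressor that KRAB zinc-finger proteins recruit to silence repeats. Of 22 tested of 25 listed genes of TRIM28 and its partners, 1 rose, 13 fell (5 without control 1, 7 without control 3) and 8 did not pass. The median log2 fold change was −1.69, and the median transcript length 5036 bases. TRIM28 itself rose 3.31-fold from 416 ± 49.3 to 1375 ± 889 CPM, and CBX5, heterochromatin protein 1 alpha, and ZNF217, a zinc-finger repressor, fell 4.90-fold and 8.30-fold. Once the length and GC trend was taken out, 9 of the remodelling genes rose and 10 fell (median −0.60), 2 of the methyltransferases rose and 8 fell (median −0.06), 1 of the demethylases rose and 10 fell (median −0.33) and 0 of the genes of the TRIM28 list rose and 4 fell (median −0.13). No longer passing were NSD2, KDM2A, SMARCD2, TRIM28, CBX5 and ZNF217 without control 1, NSD2, SMARCD2 and TRIM28 without control 2, and NSD2, KDM2A, SMARCD2 and TRIM28 without control 3 or knockdown 2 or 3 (edgeR adjusted p 0.0511 to 0.158). Calls also ended with library totals alone for SMARCD2 and TRIM28, and with removal of the length and GC trend for NSD2, KDM2A, SMARCD2, TRIM28 and CBX5 (NSD2 and CBX5 with the sign changed) (edgeR adjusted p 0.0639 to 0.738).

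Within the cytoskeleton, more motor and myosin genes fell than rose, and actin genes moved in both directions. Of the actin genes 22.9% rose and 14.3% fell, beside 19.2% and 21.6% of all genes tested. Of 40 tested of 41 listed genes of kinesin and dynein motors, 6 rose (1 without control 1 or 3, 2 without knockdown 3, 3 without control 2 or knockdown 2, 1 with library totals), 17 fell and 17 did not pass. Their log2 fold changes had a median of −1.52, and their transcripts a median length of 5338 bases. DYNC1H1, the dynein heavy chain and the longest transcript of the list, was at 297, 215 and 303 CPM in control replicates 1 to 3 and 52.8, 46.9 and 37.8 CPM in knockdown replicates 1 to 3. DYNC1H1 fell 5.92-fold (log2 fold change −2.57, SE 0.44, adjusted p = 0.00379). DYNLL2, a dynein light chain, DCTN3, of the dynactin adaptor, and KIF22, a chromosome kinesin, rose 2.68-fold, 7.03-fold and 3.57-fold. Of 22 tested of 26 listed myosin genes, 1 rose, 11 fell (7 without control 1 or 3 or knockdown 3) and 10 did not pass. Members had log2 fold changes with a median of −1.36 and transcripts with a median of 7588 bases. MYL6, a light chain, rose 8.62-fold from 82.5 ± 5.30 to 711 ± 304 CPM (SD, n = 3), and the heavy chains MYO1E and MYO18A fell 2.73-fold and 2.78-fold. The genes of the actin cytoskeleton gave 35 tested genes of 37 listed, of which 8 rose (1 without control 1, 2 without control 3, 4 without knockdown 2, 5 without knockdown 3, 4 with library totals), 5 fell (2 without control 1 or 3 or knockdown 3, 3 without control 2 or knockdown 2, 9 without knockdown 1, 10 with library totals) and 22 did not pass. At a median transcript length of 3106 bases, the median log2 fold change was −0.27. ACTB, beta actin, rose 3.10-fold, PFN1, which feeds actin to growing filaments, rose 7.33-fold from 486 ± 105 to 3564 ± 2139 CPM, and TMSB10, which binds free actin, rose 4.61-fold. Of 32 tested of 36 listed genes of RAB GTPases and secretory effectors, 4 rose (1 without control 1 or 3, 2 without knockdown 2 or 3, 1 with library totals), 11 fell (4 without control 1, 6 without knockdown 3, 18 without knockdown 1) and 17 did not pass. List medians were −0.83 for the log2 fold change and 3854 bases for length. RAB1B, RAB35 and RAB5C, of early secretion and endocytosis, rose 3.45-fold, 5.63-fold and 3.91-fold, against the lean of the list. The 11 members that fell are not named here. RAB5C was at 41.98, 159.6 and 67.4 CPM in control replicates 1 to 3 and 345, 349.9 and 358 CPM in knockdown replicates 1 to 3, close together in the knockdown and more than 3-fold apart in the controls. After removal of the trend, 10 of the motor genes rose and 13 fell (median −0.51), 2 of the myosins rose and 5 fell (median −0.37), 7 of the actin genes rose and 2 fell (median 0.38) and 7 of the RAB genes rose and 7 fell (median −0.10). Leaving out 1 library ended the calls of KIF22, DYNLL2, MYO1E, MYO18A, ACTB, TMSB10, RAB1B and RAB5C without control 1 or 3, DYNLL2, MYO1E, MYO18A, ACTB and RAB1B without control 2, DYNLL2, MYO1E, ACTB and RAB1B without knockdown 2, and KIF22, DYNLL2, MYO1E, MYO18A, ACTB and RAB1B without knockdown 3 (edgeR adjusted p 0.0510 to 0.159). Scaling mattered too: calls ended with library totals alone for KIF22, DYNLL2, ACTB, RAB1B and RAB5C, and with removal of the length and GC trend for MYO1E, MYO18A, ACTB, TMSB10, RAB1B and RAB5C (MYO1E with the sign changed) (edgeR adjusted p 0.0716 to 0.630).

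More growth factor receptor genes fell than rose, and genes that answer ERK signalling were mixed. Of the ERK genes 13.6% rose and 13.6% fell, beside 19.2% and 21.6% of all genes tested. Of 25 tested of 33 listed receptor tyrosine kinase genes, 2 rose (7 without knockdown 1), 9 fell (14 with library totals) and 14 did not pass. For the list, the median log2 fold change was −1.47 and the median length 4930 bases. EGFR was at 245, 215 and 261 CPM in control replicates 1 to 3 and 31.1, 23.7 and 9.96 CPM in knockdown replicates 1 to 3. EGFR fell 11.1-fold (log2 fold change −3.47, SE 0.54, adjusted p = 0.00367). IGF1R, the insulin-like growth factor receptor and the longest transcript of the list, fell 6.98-fold from 218 ± 23.4 to 31.2 ± 2.47 CPM (SD, n = 3). EPHA2, an ephrin receptor, was at 301, 282 and 239 CPM in control replicates 1 to 3 and 844, 1995 and 1713 CPM in knockdown replicates 1 to 3, with every knockdown library above every control. TYRO3 rose 2.78-fold, with replicate 1 inside the control range. Of 22 tested of 23 listed genes induced by or feeding back on the ERK pathway, 3 rose (1 without control 1 or 3, 6 without knockdown 1, 1 with library totals), 3 fell (0 without control 1 or 2, 1 without control 3 or knockdown 2 or 3, 7 without knockdown 1, 6 with library totals) and 16 did not pass. Median log2 fold change and transcript length were −0.56 and 4209 bases. FOSL1, an AP-1 subunit that accumulates with sustained ERK activity, was at 84.6, 76.1 and 94.8 CPM in control replicates 1 to 3 and 456, 2219.8 and 1201 CPM in knockdown replicates 1 to 3. FOSL1 rose 15.2-fold (log2 fold change 3.92, SE 0.64, adjusted p = 0.00370). ETV4, an ETS factor downstream of ERK, and AREG, a ligand of EGFR, rose 4.02-fold and 3.04-fold. AREG was highest in replicate 1. The 3 ERK genes that fell are not named here. Net of the trend, 3 of the receptor genes rose and 11 fell (median −0.76) and 6 of the ERK genes rose and 2 fell (median 0.15). Single omissions ended the calls of TYRO3, ETV4 and AREG without control 1 or 3, TYRO3 and AREG without control 2 or knockdown 3, and TYRO3 and ETV4 without knockdown 2 (edgeR adjusted p 0.0589 to 0.199). Further calls ended with upper-quartile factors for TYRO3, and with library totals alone for TYRO3, ETV4 and AREG (edgeR adjusted p 0.0589 to 0.322).

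In each list of other signalling pathways more genes fell than rose, by the widest margin in the TGF-beta list. Among the mTOR genes 23.5% rose and 29.4% fell, beside 19.2% and 21.6% of all genes tested, where falls also outnumbered rises. The YAP and mTOR lists were even with the length and GC trend removed. Of 20 tested of 23 listed targets of YAP and TEAD, 4 rose (0 without control 1 or 3, 2 without knockdown 3, 7 without knockdown 1, 0 with library totals), 8 fell (5 without control 1) and 8 did not pass. The median log2 fold change was −0.30, and the median transcript length 4629 bases. CCN1, a matrix protein, and AMOTL2, a YAP inhibitor, rose 3.90-fold and 2.83-fold, and MYOF, a membrane repair protein, fell 5.18-fold from 385 ± 118 to 74.3 ± 41.7 CPM (SD, n = 3). The genes of TGF-beta signalling gave 25 tested genes of 26 listed, of which 2 rose (6 without knockdown 1), 10 fell (4 without control 1, 5 without control 2 or knockdown 2, 6 without control 3 or knockdown 3) and 13 did not pass. Their log2 fold changes had a median of −1.27, and their transcripts a median length of 4661 bases. ID3, an inhibitor of differentiation factors, rose 3.13-fold, and TGFBR2, the type II receptor, fell 3.52-fold. Of 34 tested of 35 listed genes of mTOR, PI3K and AKT kinases, 8 rose (3 without control 1, 4 without control 3, 5 with library totals), 10 fell and 16 did not pass. Members had log2 fold changes with a median of −0.24 and transcripts with a median of 5506 bases. LAMTOR4, a small lysosomal anchor of mTOR complex 1 and the shortest transcript of the list, was at 13.6, 24.98 and 13.3 CPM in control replicates 1 to 3 and 52.2, 254 and 169 CPM in knockdown replicates 1 to 3. LAMTOR4 rose 9.17-fold. RICTOR, the large scaffold of mTOR complex 2 and the longest, was at 37.2, 32.2 and 46.8 CPM in control replicates 1 to 3 and 4.88, 1.88 and 0.916 CPM in knockdown replicates 1 to 3. RICTOR fell 14.9-fold. RPS6KB2, AKT2 and EIF4EBP1, kinases and a substrate of the pathway, rose 7.51-fold, 3.59-fold and 4.40-fold, with replicate 1 of EIF4EBP1 inside the control range. With the trend removed, 4 of the YAP targets rose and 4 fell (median 0.15), 4 of the TGF-beta genes rose and 9 fell (median −0.60) and 7 of the mTOR genes rose and 7 fell (median −0.01). Calls were lost for CCN1, AMOTL2, ID3, TGFBR2, EIF4EBP1 and AKT2 without control 1 or 3, AMOTL2, ID3 and TGFBR2 without control 2, ID3, TGFBR2, EIF4EBP1 and AKT2 without knockdown 2, and CCN1, AMOTL2, ID3 and TGFBR2 without knockdown 3 (edgeR adjusted p 0.0520 to 0.194). Other scalings ended calls, with library totals alone for CCN1, AMOTL2, ID3, EIF4EBP1 and AKT2, and with removal of the length and GC trend for ID3 and EIF4EBP1 (ID3 and EIF4EBP1 with the sign changed) (edgeR adjusted p 0.0971 to 0.907).

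More genes of DNA repair fell than rose. Of 42 tested genes of the DNA damage response, 2 rose (0 without control 1, 5 without knockdown 1), 20 fell and 20 did not pass. At a median transcript length of 4166 bases, the median log2 fold change was −1.86. PRKDC, the catalytic subunit of the DNA-dependent protein kinase, was at 381, 211 and 346 CPM in control replicates 1 to 3 and 31.6, 13.8 and 15.2 CPM in knockdown replicates 1 to 3. PRKDC fell 15.4-fold (log2 fold change −3.95, SE 0.55, adjusted p = 0.00367). TP53BP1, which steers double-strand breaks to end joining, fell 7.57-fold from 95.1 ± 37.1 to 12.5 ± 12.7 CPM (SD, n = 3). H2AX, the histone variant marked at breaks, rose 5.06-fold. Of 32 tested apoptosis genes, 10 rose (4 without control 1 or 3, 6 without knockdown 2, 5 with library totals), 4 fell (1 without control 1, 11 without knockdown 1, 7 with library totals) and 18 did not pass. List medians were −0.02 (0.13 with DESeq2) for the log2 fold change and 3354 bases for length. BCL2L1, which protects cells, and BID and BAK1, which promote death, rose 4.73-fold, 4.58-fold and 9.07-fold. Their list medians were 0.50, −0.43 and −0.38, with replicate 1 on the other side of 0. The circadian clock genes gave 19 tested genes of 22 listed, of which 4 rose (1 without control 1 or 3, 2 with library totals), 5 fell (3 without control 1 or 3, 8 without knockdown 1) and 10 did not pass. For the list, the median log2 fold change was −0.16 and the median length 4707 bases. CSNK1E, a kinase of the clock, and the repressors PER1 and CRY2 rose 4.64-fold, 4.97-fold and 4.87-fold. Once the length and GC trend was taken out, 7 of the repair genes rose and 17 fell (median −0.60), 12 of the apoptosis genes rose and 4 fell (median 0.63) and 8 of the clock genes rose and 3 fell (median 0.25). No longer passing were H2AX, CSNK1E, PER1 and BCL2L1 without control 1, and CSNK1E, PER1 and BCL2L1 without control 3 (edgeR adjusted p 0.0506 to 0.0816). Adjusted p rose above the threshold with library totals alone for PER1, and with removal of the length and GC trend for H2AX and TP53BP1 (edgeR adjusted p 0.0628 to 0.110).

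Within lists, longer transcripts tended to have lower log2 fold changes, to a degree that varied widely. Spearman's rho of transcript length with the log2 fold change was below 0 in all 40 lists for which it was computed, with a range of −0.78 to −0.13 and a median of −0.56. The 4 lists drawn by member were taken from the steeper ones, with −0.78 for 31 core spliceosome genes, −0.78 for 30 junction genes, −0.73 for 34 mTOR genes and −0.70 for 38 mitotic genes. It was weak for keratins (−0.13), mitochondrial transcripts (−0.15), gastrointestinal transcription factors (−0.17), DNA replication (−0.24) and splicing regulators (−0.28). These are descriptions across genes, which share the same 6 libraries. SF3B5 and SF3B3 belong to the same complex and had log2 fold changes of 4.16 and −1.65, with transcripts of 693 and 9720 bases. UBE2C and CENPF, at 914 and 10307 bases, had 2.82 and −3.42, and LAMTOR4 and RICTOR, at 730 and 9543 bases, had 3.20 and −3.89. Each pair is the shortest and the longest member of its list, taken from the steeper lists. Other long transcripts rose, with 1.46 for CLK3 at 10498 bases, 1.42 for DYNLL2 at 6805 and 2.91 for RPS6KB2 at 5528.

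**Figure D4:**
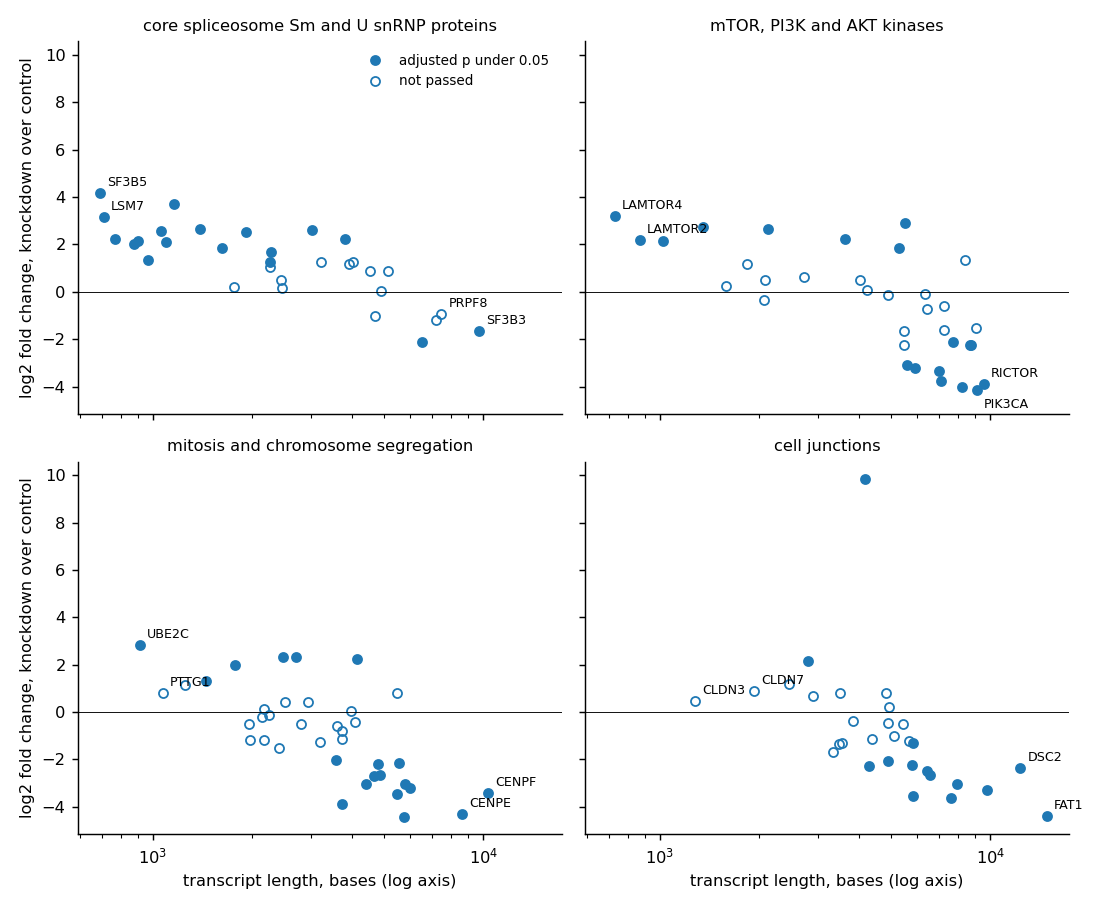
Log2 fold change (vertical axis) against transcript length in bases (horizontal log axis) for the tested members of 4 gene lists, 1 point per gene, filled where the adjusted p is under 0.05; the 2 shortest and 2 longest members of each list are named. In all 4 panels short members lie mostly above 0 and the longest below it, and CLDN4 is the point at 9.86 among the junction genes.

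Among the most abundant genes past the stricter rule, tubulins and ribosomal proteins were higher. TUBA1C was at 871, 902 and 903 CPM in control replicates 1 to 3 and 2817, 7285 and 6706 CPM in knockdown replicates 1 to 3. TUBA1C rose 6.28-fold (log2 fold change 2.65, SE 0.54, adjusted p = 0.00554). TUBA1B rose 5.44-fold and TUBB4B rose 8.74-fold from 540.1 ± 66.6 to 4722 ± 2573 CPM (SD, n = 3). Alpha and beta tubulins are near-identical within each family, so reads could have been split among members. Also rising under this rule were KRT8 and the ribosomal protein genes RPL8, RPL35, RPLP1, RPLP0 and RPS2, which rose 7.27-fold to 15.9-fold (adjusted p 0.00456 to 0.00630, edgeR quasi-likelihood test). RPS2 had 75933 and 39470 counts in knockdown replicates 2 and 3, and its pseudogene RPS2P5 had 157724 and 76612. Reads could thus have been split between RPS2 and this copy. AHNAK, a giant scaffold under the cell membrane, was at 2235, 1059.7 and 1631 CPM in control replicates 1 to 3 and 131, 227 and 162 CPM in knockdown replicates 1 to 3. AHNAK fell 9.48-fold (log2 fold change −3.25, SE 0.52, adjusted p = 0.00370). SCD, the desaturase that makes monounsaturated fatty acids, was at 484, 447 and 645 CPM in control replicates 1 to 3 and 94.7, 81.1 and 89.5 CPM in knockdown replicates 1 to 3. SCD fell 5.94-fold (log2 fold change −2.57, SE 0.44, adjusted p = 0.00379). NR2F2, an orphan nuclear receptor, fell 6.13-fold from 446 ± 50.7 to 72.7 ± 16.01 CPM, and IQGAP1, a scaffold of the actin cortex, fell 5.50-fold from 564 ± 231 to 103 ± 15.95 CPM (SD, n = 3). ERRFI1, a feedback inhibitor of EGFR, ITPRID2, and PPP1CB, a protein phosphatase catalytic subunit, fell 6.93-fold, 9.06-fold and 5.68-fold, each with replicate 1 at least 3-fold above the mean of replicates 2 and 3. DSP, UBR4 and CHD4, described above, completed the falling genes of the rule. Leaving out 1 library ended the calls of TUBA1B, ERRFI1 and PPP1CB without control 1, and PPP1CB without knockdown 2 (edgeR adjusted p 0.0502 to 0.0563). Further losses came with removal of the length and GC trend for IQGAP1 and PPP1CB (edgeR adjusted p 0.0748 to 0.783).

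The 3 knockdown libraries were compared gene by gene. Between control libraries 0.716 to 3.75% of tested genes lay at least 4-fold apart. Knockdown replicates 2 and 3 differed that much at 4.77% of genes, and replicate 1 differed from them at 24.1 and 19.5%. Across genes, Pearson's r of log2 CPM was 0.962 between replicates 2 and 3, 0.863 and 0.876 between replicate 1 and each of them, 0.815 to 0.852 between replicate 1 and the controls, and 0.639 to 0.770 between the controls and replicates 2 and 3. Replicate 1 thus lay between the controls and the other knockdown libraries by this measure. Over 14864 genes, the difference of replicate 1 from the mean of replicates 2 and 3, which uses no control, had a Spearman's rho of −0.75 with GC content and 0.23 with transcript length.

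**Figure D5:**
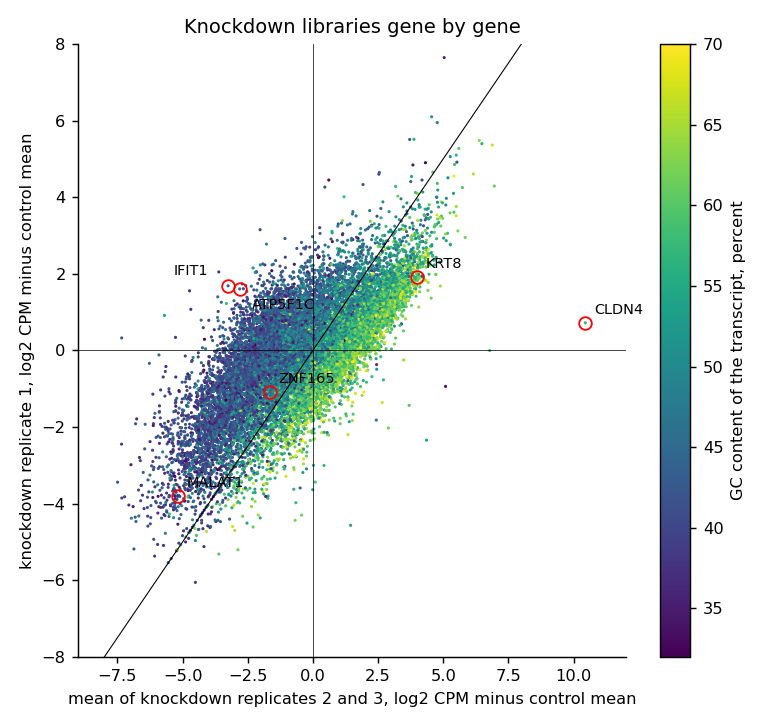
Each point is a tested gene, with the mean of knockdown replicates 2 and 3 (horizontal axis) and knockdown replicate 1 (vertical axis), both in log2 CPM minus the control mean, coloured by GC content of the transcript; the diagonal marks equal change, and both axes share the controls. Genes of low GC content lie above the diagonal and genes of high GC content below it, and red rings mark ZNF165 and genes named in the text, with CLDN4 at the far right near a replicate 1 value of 0.

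The genes that separated replicate 1 most were taken by a rule from 6099 protein-coding genes with a mean of at least 10 CPM and controls within 2-fold of each other, and are given as a description with no test. Replicate 1 lay at least 4-fold above the mean of replicates 2 and 3 at 894 of them and at least 4-fold below at 162. The 8 largest differences above were those of FRRS1, RPL17-C18orf32, IFIT1, FBXO33, C3orf38, CAB39L, ATP5F1C and PIGK. IFIT1, an interferon-induced protein that binds foreign RNA, was at 166 ± 28.6 CPM in the controls and 530.3, 21.3 and 13.7 CPM in knockdown replicates 1 to 3 (SD, n = 3). ATP5F1C, the gamma subunit of mitochondrial ATP synthase, was at 132 ± 4.29 CPM in the controls and 402, 17.1 and 20.5 CPM in knockdown replicates 1 to 3 (SD, n = 3). In both genes replicate 1 lay above every control and replicates 2 and 3 below every control. FBXO33, an F-box protein, was at 17.7 ± 3.17 CPM in the controls and 42.01, 1.19 and 1.72 CPM in knockdown replicates 1 to 3, and FRRS1, a ferric reductase-like protein, at 26.1 ± 7.85 CPM in the controls and 19.9, 0.198 and 0.229 CPM in knockdown replicates 1 to 3 (SD, n = 3). RPL17-C18orf32 is a read-through of 2 neighbouring genes, whose reads may belong to either. The 8 largest differences below were those of ZNF696, CYB561D1, MRPL49, TEN1, FBXO31, CCDC57, NCLN and PMF1-BGLAP. NCLN, of the nicalin complex of the endoplasmic reticulum, was at 43.8 ± 10.6 CPM in the controls and 76.2, 687 and 375 CPM in knockdown replicates 1 to 3, and CYB561D1 was at 35.4 ± 2.50 CPM in the controls and 9.64, 91.5 and 94.9 CPM in knockdown replicates 1 to 3 (SD, n = 3). MRPL49 was at 86.1 ± 4.59 CPM in the controls and 61.2, 225 and 979.8 CPM in knockdown replicates 1 to 3, where replicate 3 also stood apart from replicate 2. The GC content of the first 8 had a median of 42.7% and a range of 34.9 to 44.7%, that of the second 8 a median of 58.8% and a range of 51.7 to 64.6%, and the 6099 genes a median of 50.05%. The median lengths were 3185 and 3400 bases.

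Markers of other cell types were low beside those of epithelium in all 6 libraries. The 10 epithelial markers summed to 8575 to 9632 CPM in the controls and 17309 to 40632 CPM in the knockdown, in CPM of library totals. All 10 were tested: 5 rose, 3 fell and 2 did not pass. CDH1, the cadherin of adherens junctions, ESRP1, an epithelial splicing factor, and GRHL2, an epithelial transcription factor, fell 4.14-fold, 4.89-fold and 8.15-fold; these 3 were chosen with their values in view. Without the keratins KRT8, KRT18 and KRT19 the other 7 summed to 2090.3 to 3198 CPM in control libraries and 3786, 3808 and 3990.5 CPM in knockdown replicates 1 to 3. CLDN4 is among these 7, with counts of 34, 89 and 42 (controls) and 56, 40987 and 21578 (knockdown replicates 1 to 3). A large part of the sum in replicates 2 and 3 therefore comes from this 1 gene. Of 10 fibroblast markers only COL1A1, a collagen chain, had enough counts to be tested, with counts of 1756, 1658 and 2090 (controls) and 361, 769 and 395 (knockdown replicates 1 to 3). The list summed to 89.8 to 124 CPM in the controls and 28.2 to 45.5 CPM in the knockdown. Of 10 endothelial markers 2 had no count in any of the 6 libraries, and the sum was 9.01 to 30.7 against 10.5 to 17.3 CPM. ROBO4, a guidance receptor of vessels, had counts of 9, 14 and 8 (controls) and 15, 36 and 33 (knockdown replicates 1 to 3) (log2 fold change 2.63, SE 0.71, adjusted p = 0.0153). Its control counts are low, so its fold is not exact. Leaving out 1 library ended the calls of ROBO4 without control 1 or 3 (edgeR adjusted p 0.0721 to 0.0862). Calls also ended with library totals alone for ROBO4 (edgeR adjusted p 0.0575). The 12 leukocyte markers, 2 of them at 0 throughout, summed to 2.95 to 3.53 CPM in the controls and 5.10 to 5.63 CPM in the knockdown. CD14, a monocyte receptor, had counts of 3, 0 and 7 (controls) and 26, 63 and 34 (knockdown replicates 1 to 3) (edgeR adjusted p = 0.00573), with control levels near that of 3 counts, so no fold is given. ROBO4 and CD14 had enough counts to be tested only through the knockdown libraries. A gene this low in the controls could be tested only if it rose. Most of the markers of these 3 cell types that were tested did not pass, and the part of other cells in any result was not tested. The cells thus read as epithelial in both groups by these markers, the labelled cell type. In bulk RNA, fewer cells of a kind and less RNA per cell cannot be told apart.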

How the data were processed

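RNA sequencing of 6 MKN28 libraries was analysed, 3 per group. The values are whole-number counts per gene identifier, as deposited by the authors; HISAT2 and StringTie are named in the submitters' processing notes, without versions. The counting rule, strand setting, genome build and annotation were not given in the sources used here. Near-identical paralogs, processed pseudogenes, overlapping genes and antisense genes may therefore have shared or lost reads. Of 50868 identifiers, 49659 matched a symbol and 50111 were present in GENCODE 29 (GRCh38), from which transcript length and GC content of the longest transcript were taken.

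Counts were fitted with edgeR 4.0.16 in R 4.3.3: TMM scaling, a filter on low counts (at least 10 counts in enough libraries and 15 in all), a quasi-likelihood test without a replicate term, and Benjamini-Hochberg adjustment over all 14939 genes tested, called at an adjusted p under 0.05. Log2 values per library used a prior count of 2. Fold changes are fitted values, and means ± SD are of TMM-scaled CPM. The length and GC trend was a smooth surface per library from mgcv 1.9.3, entered as an offset. Alternatives used DESeq2 1.42.0, limma 3.58.1, other scalings and filters, omitted libraries and a replicate term. The code was tested on simulated data. Same-numbered control and knockdown libraries deviated from their group means with correlations of 0.291, 0.431 and −0.357, so the numbers were not shown to pair them.

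The named genes were ZNF165, up to 3 called members of each list with the highest mean CPM (the most abundant tested member where none was called), the 10 rising and 10 falling protein-coding genes of highest mean CPM past the stricter rule, and the 8 genes on each side that separated knockdown replicate 1. Some genes that the rule names are not reported here. The shortest and longest members of some lists were named for their transcript length. The groups, lists and rules were chosen with earlier results of these data known.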

Additional observations from a re-analysis of the deposited data

How the results depend on the processing

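Against 6092 calls (2864 higher, 3228 lower), leaving out 1 library gave 2642 to 10378 calls, 1019 to 4461 higher and 1623 to 5917 lower, the fewest without control replicate 1 and the most without knockdown replicate 1. With knockdown replicate 1 as the lone knockdown library, assumed to vary like the controls, 3352 genes passed, 1573 higher and 1779 lower, and voom with quality weights called 11540, 4908 higher and 6632 lower. With library totals alone, 1310 rose among 5214 calls (25.1% higher, against 47.0%). DESeq2 called 7289, upper-quartile factors 6137, no filter 6633, a mean of at least 1 CPM 5745 and all 12 libraries 8734, each within 1.5 times. With the length and GC trend removed, 6208 passed.

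ZNF165 in the knockdown had log2 fold changes between −1.23 and −1.63 with 1 library left out, −1.54 without the filter (adjusted p = 0.0703) and −1.09 with knockdown replicate 1 alone (adjusted p = 0.198), from edgeR's quasi-likelihood test. The replicate block gave −1.48 for ZNF165 (edgeR adjusted p = 0.0643) and 6994 calls, and with the trend removed as well 5655 calls; replicate numbers are shared but were not shown to pair the libraries. Knockdown libraries 2 and 3 both deviated most like control 2, so not every library correlated best with its own number.

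Of 161 named genes with a test, 10 changed sign with the trend removed, with log2 fold changes, without and with the block, of −0.23 and −0.22 for TALDO1, 0.19 and 0.16 for TRIP12, 0.30 and 0.32 for NSD2, 0.11 and 0.11 for CBX5, 0.15 and 0.15 for MYO1E, −0.17 and −0.16 for KRT19, −0.26 and −0.19 for ID3, −0.05 and −0.05 for EIF4EBP1, 0.16 and 0.16 for AGO1, and 0.04 and 0.04 for SF3B3; the cause was not tested. A further 33 no longer passed without the block. All 161 kept their direction and their side of the threshold with DESeq2, with all 12 libraries, without knockdown replicate 1 and with voom. Genes chosen for separating knockdown replicate 1, such as IFIT1 and ATP5F1C, are not covered by these counts. IFIT1 and ATP5F1C had log2 fold changes of 0.18 and 0.15, with knockdown replicates 2 and 3 below every control. Library totals alone ended 44 calls, and leaving out control replicate 1 or 3 ended 81 and 69. MUC4 has no value with a mean of at least 1 CPM. Genes near the level of 3 counts, 0.161 to 0.248 CPM, could not show a fall at this depth.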
